A study of Homo sapiens with 6 samples.

Results

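The long intergenic noncoding genes described here are the 55 genes, of 11034 Ensembl genes in the isoform count table, whose symbol is LINC followed by a number or is LINP1 or MALAT1 and that held at least 10 reads over all 6 libraries. Symbols in antisense form were left out. The symbol rule matched 82 genes, of which 27 had under 10 reads; 3 genes stood just inside the limit at 10 reads and 3 just outside it at 9. NEAT1 was also sought, but no isoform in the table carried its gene ID, and it is not analysed here. By GENCODE biotype 42 of the 55 are lincRNAs, 5 processed transcripts, 4 transcribed unprocessed pseudogenes, 3 antisense and 1 a transcribed unitary pseudogene.

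The RNA came from HBEC3kt, a line of human bronchial epithelial cells immortalised in culture. The 3 WT libraries carry wild-type U2AF1 and the 3 S34F libraries the U2AF1 S34F mutation, in which a serine of the small subunit of the splicing factor U2AF is replaced by phenylalanine. In both genotypes replicate 1 is cell isolate 1, replicate 2 is isolate 2 and replicate 3 is isolate 2 again. Replicates 1 and 2 are marked B1 and replicate 3 is marked B2, so every p-value below measures the spread between libraries of 2 isolates per genotype. All libraries were made from poly(A)-primed cDNA and read whole on a nanopore device. The series asks how the mutation changes RNA processing.

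Long noncoding RNAs are transcribed, capped and usually spliced like messenger RNA but are not translated into long proteins, and many stay in the nucleus. MALAT1 gathers in nuclear speckles, compartments rich in splicing factors, and its main transcript ends in a triple helix in place of a poly(A) tail. LINP1 is a scaffold for the Ku and DNA-PK proteins that rejoin broken DNA ends. U2AF1 reads the AG at the end of an intron, and cells with S34F are known for favouring exons whose AG follows a C over those whose AG follows a T.

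The members held 161 isoforms and 3995 reads. The shallowest library assigned 451540 reads in all and the deepest 1720292, and each of the WT libraries was deeper than each of the S34F libraries. Member reads numbered 1128, 792 and 1009 in WT replicates 1, 2 and 3, and 339, 231 and 496 in S34F. A member held 50 reads in the median and 384 at most, and 4 members had at least 10 reads in every library. The 12 members with most reads held 55.6% of the total. All 9 markers of basal bronchial epithelium were read. Of 7 fibroblast markers VIM alone was read, with COL1A1, COL1A2, COL3A1, DCN, LUM and PDGFRB at 0. Of 6 blood cell markers PTPRC, CD3E, HBB and LYZ were at 0, CD14 had 15 reads and CD68, a lysosomal protein, 461; their summed level was 60.2 to 79.2 CPM in WT and 62.3 to 90.3 CPM in S34F. The 5 secretory and ciliated cell markers were at 0.

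Splice sites of the members described below, where letters could be read, are shown first. The deposited models give hg19 positions. They were placed on GENCODE v29 transcripts with the same transcript ID, intron lengths and inner exon lengths. The letters come from any GENCODE transcript of the gene with an exon that runs through the edge of the intron. A transcript was matched in this way for 33 of the 55 members, but letters at intron edges could be read for fewer of them. The route gave 15 windows at 3′ splice sites and 22 at 5′ splice sites, which do not stand for all sites of the members. All 22 5′ windows begin the intron with GT. At the 3′ sites 14 of 15 introns end in AG, preceded by C in 9, by T in 3, by A in 2 and by G in 0. In the lines for 3′ sites, 20 intron bases stand before 10 exon bases, and the capitals mark the last 3 bases of the intron. In the line for the 5′ site of LINC00888, where the shorter form of its first exon ends, 10 exon bases stand before 20 intron bases, and the capitals mark the first 2 bases of the intron.
LINC01503 exon 2, chr9:132096234-132096263, plus strand: ctctccctctgctctcaCAGggttccctaa
LINC01503 exon 4 inner site, chr9:132104091-132104120, plus strand: tgatgtgtgactgctgcCAGgagcctgctc
LINC00888 5′ site, chr3:183165544-183165573, plus strand: tgttgccaagGTgacgaggcataaagccgc
MALAT1, chr11:65270088-65270117, plus strand: aactttttttttttctaTAGacttttttca
LINC00963 first 3′ site, chr9:132255675-132255704, plus strand: acatgtcatatgcttaaAAGcagggcccag
LINC00963 second 3′ site, chr9:132255678-132255707, plus strand: tgtcatatgcttaaaagCAGggcccaggac
LINC00888 first 3′ site, chr3:183171780-183171809, plus strand: gggttggtggtgttttgCAGgtagcgacag
LINC00888 second 3′ site, chr3:183171783-183171812, plus strand: ttggtggtgttttgcagGTAgcgacagaag
LINC00973 is shown by the join of its exons 1 and 2 in the spliced transcript (chr3, after position 98700230 and before 98701308), with the last 2 bases of exon 1 and the first 2 of exon 2 in capitals. This junction is that of its more abundant isoform, and it is shown because LINC00973 is the member called lower.
LINC00973 exons 1 and 2: taatgagtagaggAAATgaagaaataagaa

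Levels are given as CPM, reads scaled to a common library size (with TMM, which evens out composition), and are not scaled by transcript length. In bulk RNA, fewer cells expressing a gene and less RNA per cell cannot be told apart. Summed over all 55 members, the level was 672, 672 and 600 CPM in the WT libraries and 557, 491 and 469 CPM in the S34F libraries. Every WT library lay above every S34F library. The means were 648 ± 41.4 CPM in WT and 505 ± 46.0 in S34F (SD, n = 3 each), a log2 ratio of -0.36, with an exact two-sided permutation p of 0.10, the smallest that 3 against 3 allows. As a share of all assigned reads the members made up 0.0616% to 0.0656% in WT and 0.0418% to 0.0512% in S34F. Much of the difference in means lay in LINC01503 (67.6 CPM in WT and 34.1 in S34F), LINC00659 (37.2 and 11.9) and LINC02376 (32.9 and 0.708). LINC02376 alone had 44.6 CPM in WT replicate 3 and 0 in S34F replicate 1, more than the gap between the sums of these libraries. Without this gene the sums of the 2 genotypes overlap, so the separation does not describe the set as a whole.

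**Figure D1:**
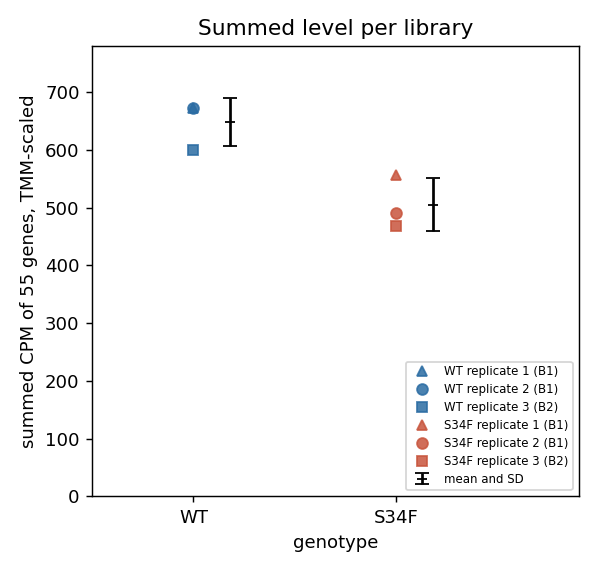
Summed level of the 55 genes in each library (y axis, TMM-scaled CPM) by genotype (x axis); symbols mark replicates, and black bars show the mean and SD of 3 libraries. The 3 WT libraries lie at 600 to 672 CPM and the 3 S34F libraries at 469 to 557 CPM.

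With reads pooled within genotypes, 38 of the 55 members (69.1%) had a lower level in S34F, and the median log2 ratio was -0.41. Of 7408 genes in the same range of total reads 52.3% were lower, with a median of -0.04. Of 118 other lincRNA genes with 10 reads 72.0% were lower, with a median of -0.64. Ranges of the 3 libraries did not overlap for 10 members that were lower in S34F and 3 that were higher; over 9631 Ensembl genes with 10 reads such separation occurred in 8.28% (lower) and 5.26% (higher). The lower members were LINC01503, LINC00659, LINC02376, LINC00909, LINC00662, LINC00467, LINC00973, LINC01547, LINC00476 and LINC01932, and the higher ones LINP1, LINC01116 and LINC02210. No member was without reads in all libraries of a genotype, but 15 were at 0 in at least 1 S34F library and 1 in a WT library. Depth moves with genotype here, and its part in these zeros was not tested.

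**Figure D2:**
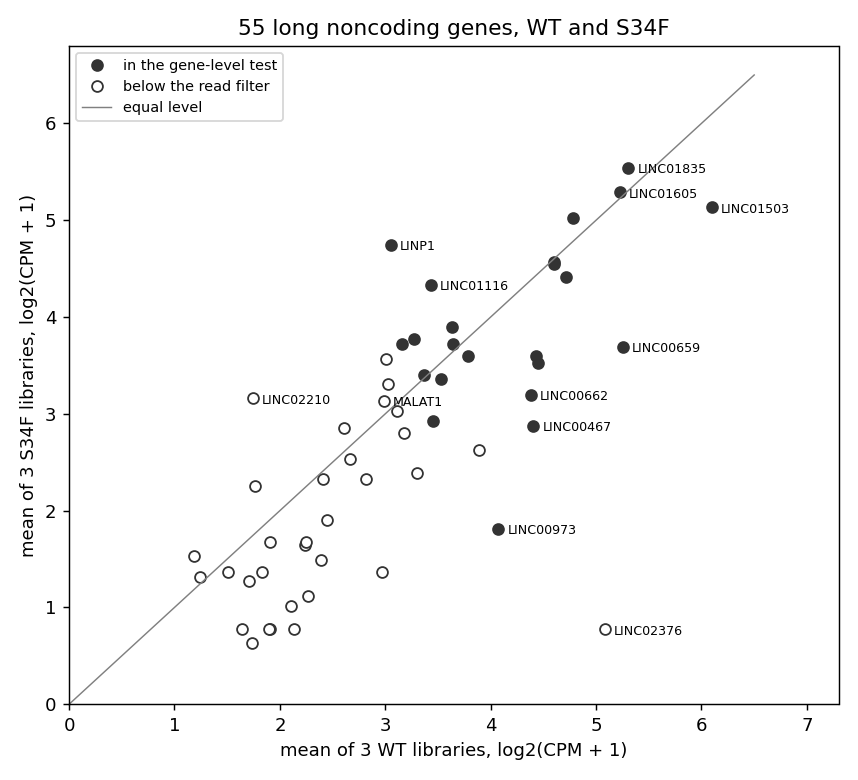
Mean level of each of the 55 genes in 3 WT libraries (x axis) against 3 S34F libraries (y axis), both as log2(CPM + 1); filled points entered the gene-level test, open points had too few reads. LINP1 lies above the line of equal level, and LINC00973 and LINC02376 lie far below it.

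The gene-level test, edgeR's quasi-likelihood test over all 7033 genes and loci with enough reads, took in 23 of the 55 members. LINP1 rose and LINC00973 fell at a Benjamini-Hochberg adjusted p under 0.05, against 3.24% of all genes and loci tested (1.11% higher, 2.13% lower). Before adjustment, 9 tested members had p under 0.05, 2 higher and 7 lower, beside 17% of everything tested (7.65% higher, 9.37% lower). These 23 passed a read filter and do not speak for the other 32. Their median log2 fold change was -0.11, and that of all tested genes and loci 0.02.

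LINP1 (ENSG00000223784.1, chr10:6779345-6780988, plus strand) had a single isoform of 2 exons and 916 bases, with an annotated transcript ID. It held 15, 9 and 9 reads in WT replicates 1, 2 and 3 (8.94, 7.63 and 5.35 CPM) and 25, 6 and 25 reads in S34F (41.1, 12.7 and 23.6 CPM). All S34F libraries were above all WT libraries, and S34F replicate 1 was the highest. The gene passed the read filter through the 3 S34F libraries and 1 WT library. The means were 7.31 ± 1.81 CPM in WT and 25.8 ± 14.3 in S34F (SD, n = 3 each), and the log2 fold change was 1.86 (SE 0.45, edgeR adjusted p = 0.035). The isoform-level test, which used the same reads, gave 1.79 (edgeR adjusted p = 0.015). It was the 1 member isoform called of 13 tested, where 4.26% of 13961 isoforms were called (1.35% as higher). With only the B1 libraries the log2 fold change of LINP1 was 1.70 (edgeR adjusted p = 0.22). Without WT replicate 1, 2 or 3 or S34F replicate 1 or 3 it was 1.39 to 1.95, and the edgeR adjusted p was 0.11 to 0.27, so that the call held only with all libraries or without S34F replicate 2.

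The Ku and DNA-PK pathway to which LINP1 belongs was read in 9 genes, and 8 were tested. None was called by edgeR, DESeq2 or limma-voom (0 of 8), and each tool gave 1 gene with p under 0.05 before adjustment, where edgeR gave 17% of everything tested. In edgeR that gene was PARP1, a sensor of DNA breaks, with 27.9 ± 5.98 CPM in WT and 51.3 ± 7.83 in S34F (SD, n = 3 each; log2 fold change 0.87, edgeR adjusted p = 0.17). XRCC5, which encodes the larger Ku subunit, stood at 135 and 173 CPM (log2 fold change 0.32, edgeR adjusted p = 0.63). XRCC4, the partner of the ligase of this pathway, had a log2 fold change of 0.68 and PRKDC, the DNA-PK catalytic subunit, 0.39 (edgeR adjusted p = 0.51 and 0.74).

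LINC00973 (ENSG00000240476.1, chr3:98699903-98717685, plus strand) held 30, 23 and 17 reads in WT replicates 1, 2 and 3 (17.9, 19.5 and 10.1 CPM) and 1, 1 and 4 reads in S34F (1.64, 2.12 and 3.78 CPM). Every WT library was above every S34F library. It passed the read filter through the 3 WT libraries and 0 of the S34F libraries, so only a gene that differed in this way could enter the test with so few S34F reads. The means were 15.8 ± 5.02 and 2.51 ± 1.12 CPM (SD, n = 3 each), and the log2 fold change was -2.36 (SE 0.58, edgeR adjusted p = 0.038). Pooled over libraries, the WT level was 5.50 times that in S34F, with a 95% counting interval of 2.40 to 15.5 that does not cover the spread between libraries. With the replicate number as a block, the fold change was the same to 2 decimals, and the edgeR adjusted p was 0.065. In B1 alone the log2 fold change was -3.26 (edgeR adjusted p = 0.053). Without WT replicate 1, 2 or 3 or S34F replicate 1 or 3 the edgeR adjusted p was 0.060 to 0.22, with log2 fold changes of -3.27 to -2.00, and without S34F replicate 2 it was 0.024.

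Both isoforms of LINC00973 were lower. The annotated form of 2 exons and 961 bases, whose junction is printed above, held 20, 20 and 8 reads in WT and 1, 1 and 2 in S34F. The longer form of 3 exons and 1471 bases, without an annotated ID, held 10, 3 and 9 reads against 0, 0 and 2. The annotated form made up 68.6% of WT reads and 66.7% of S34F reads, the latter from 6 reads.

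LINC02376 (ENSG00000256292.1, chr12:127758816-127760258, minus strand) had the largest pooled ratio between genotypes of the 55 members but did not enter the gene-level test. Its single isoform of 2 exons and 516 bases held 11, 56 and 75 reads in WT replicates 1, 2 and 3 (6.55, 47.5 and 44.6 CPM) and 0, 1 and 0 reads in S34F. Both WT libraries of isolate 2 were high, the WT library of isolate 1 was lower, and the S34F libraries of both isolates were at or near 0. The pooled WT to S34F ratio was 66.9, with a 95% counting interval of 11.8 to 2661 from the 1 S34F read. The read filter asks for enough reads in 3 libraries, and WT replicate 1 was below it. With no filter the log2 fold change was -6.00 (edgeR adjusted p = 2.37e-12), and with the 2 libraries of isolate 2 summed it was -5.64 (edgeR adjusted p = 0.89).

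Below the threshold stood 7 members with p under 0.05 before adjustment. LINC01503, reported in squamous cancers as a transcript controlled by TP63, had the most reads of all members: 138, 75 and 96 in WT and 23, 13 and 39 in S34F. In CPM these were 82.2, 63.6 and 57.1 against 37.8, 27.6 and 36.8. The groups did not overlap, and the log2 fold change was -0.96 (SE 0.31, edgeR adjusted p = 0.13). LINC00662 was similarly separated, at 19.1, 17.8 and 22.6 CPM in WT and 8.21, 10.6 and 5.67 in S34F (log2 fold change -1.37, SE 0.44, edgeR adjusted p = 0.12). Its models overlap AC006504.5, a noncoding gene on the opposite strand that the table counts separately, at 14.9 CPM in WT and 18.6 in S34F (log2 fold change 0.29, edgeR adjusted p = 0.82). All 6 isoforms of LINC00662 are spliced, and no source used here says whether strand entered the counting. TP63 itself had 20.4 and 18.1 CPM in the means of WT and S34F (edgeR adjusted p = 0.83).

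LINC00467, which also encodes a small mitochondrial protein, stood at 18.5, 31.4 and 10.7 CPM in WT and 8.21, 4.25 and 6.61 in S34F (log2 fold change -1.45, SE 0.49, edgeR adjusted p = 0.14). LINC00659 stood at 68.5, 28.8 and 14.3 CPM in WT and 13.1, 8.50 and 14.2 in S34F (log2 fold change -1.36, SE 0.50, edgeR adjusted p = 0.18). WT replicate 1 was far above the other libraries there, and WT replicate 3 was only just above the highest S34F library. LINC00909 (log2 fold change -0.98, edgeR adjusted p = 0.24) and LINC01322 (-0.89, edgeR adjusted p = 0.27) were the remaining lower ones. LINC01116 was the second of the 2 higher members, at 12.5, 8.48 and 8.33 CPM in WT and 19.7, 17.0 and 20.8 in S34F (log2 fold change 0.98, SE 0.40, edgeR adjusted p = 0.22). Its groups did not overlap.

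Next by p came LINC02001, LINC00958 and LINC00888, with log2 fold changes of 0.60, 0.53 and -0.37 (edgeR adjusted p = 0.61, 0.64 and 0.71). Members with many reads and near-equal means were LINC01835, with 38.6 ± 9.15 CPM in WT and 45.5 ± 19.0 in S34F, and LINC01605, with 36.4 ± 8.63 and 38.1 ± 7.41 (SD, n = 3 each). For LINC01605 the log2 fold change was 0.07 with an SE of 0.30, so a change of this order in either direction is within the error. LINC01184, LINC00839 and LINC00674 had log2 fold changes of 0.25, -0.05 and -0.21, with edgeR adjusted p of 0.76, 0.97 and 0.89. LINC00674 ranged from 6.57 to 51.0 CPM among the S34F libraries alone. LINC02210, too low for the test, had 3.57, 1.70 and 1.78 CPM in WT and 9.86, 6.37 and 7.56 in S34F from 11 and 17 reads.

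**Figure D3:**
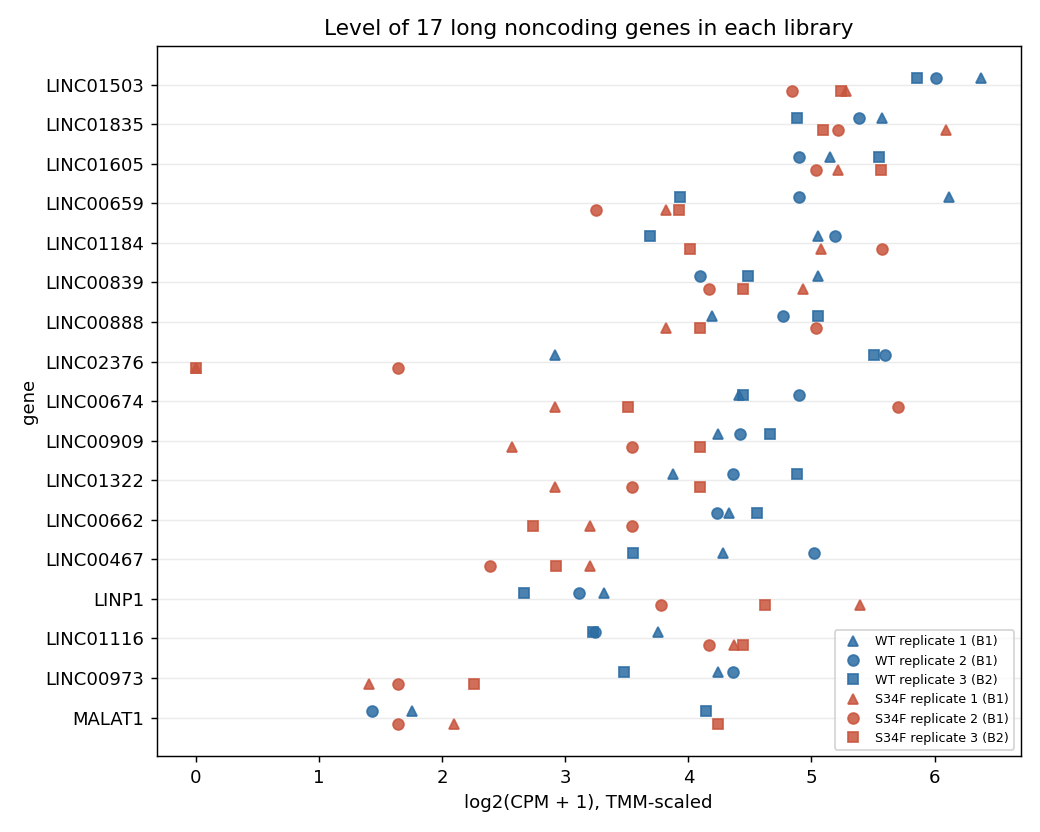
Level of 17 genes, the 12 with most reads and 5 others, in each of 6 libraries (x axis, log2(CPM + 1); 1 row per gene); blue is WT, red S34F, and squares are the B2 libraries. LINP1 and LINC01116 have all red points to the right of the blue ones, LINC00973 and LINC02376 the reverse, and MALAT1 parts by B1 and B2.

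MALAT1 (ENSG00000251562.3) was read at its gene ID as a single spliced model, chr11:65268483-65270470 on the plus strand, with an intron of 243 bases. This model held 4, 2 and 28 reads in WT replicates 1, 2 and 3 (2.38, 1.70 and 16.7 CPM) and 2, 1 and 19 in S34F (3.29, 2.12 and 17.9 CPM). Both B2 libraries were high and all 4 B1 libraries low, in either genotype, and the gene was below the filter of the test.

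More reads lay beside this model, at loci without a gene ID. An unspliced locus over the same bases held 8, 15 and 362 reads in WT and 7, 10 and 98 in S34F, again highest in both B2 libraries (215 and 92.6 CPM, against 4.77 to 21.2 in B1). A single-exon locus of 654 bases on the same strand, which ends 1313 bases before the model, held 5575 reads: 800, 1105 and 1648 in WT and 325, 965 and 732 in S34F. It was read in every library at 477 to 2049 CPM, with S34F replicate 2 the highest, and its log2 fold change was 0.42 (SE 0.47, edgeR adjusted p = 0.72). GENCODE's MALAT1 gene of 8829 bases reaches 4160 bases before and 2907 bases after the matched transcript.

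**Figure D4:**
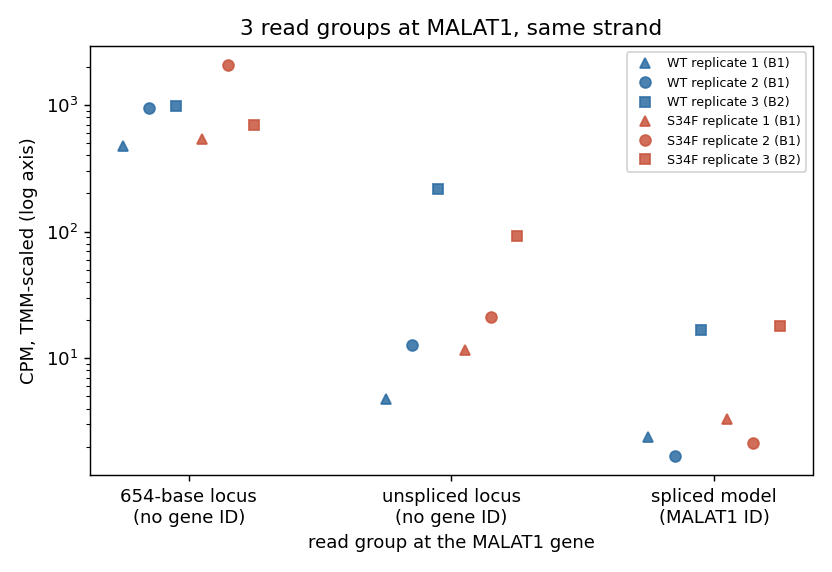
CPM (y axis, log axis) in each of 6 libraries for 3 read groups on the strand of MALAT1: a locus of 654 bases without a gene ID, an unspliced locus without a gene ID, and the spliced model with the MALAT1 ID. The first lies at 477 to 2049 CPM in all libraries, and the other 2 are highest in the B2 libraries (squares).

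The intron of the MALAT1 model ends in the TAG printed above. Of reads at the spliced model or the unspliced locus, 34 of 419 in WT were spliced (8.11%, 95% Wilson interval 5.86% to 11.1%) and 22 of 137 in S34F (16.1%, 10.9% to 23.1%). Within B2 the shares were 28 of 390 (7.18%, 5.01% to 10.2%) and 19 of 117 (16.2%, 10.6% to 24.0%). The B1 libraries held 9 to 17 such reads each, and their shares of 33.3% and 11.8% in WT and 22.2% and 9.09% in S34F overlapped. The higher S34F share therefore rests on 1 library per genotype. Wilson intervals here cover counting error only.

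The surrounding pathways are described by lists of genes. Of 19 tested proteins of nuclear speckles, the residence of MALAT1, none was called by edgeR, DESeq2 or limma-voom, and 2 had p under 0.05 in edgeR, where 17% of everything tested did, and 3 in each of the other tools. These 2 were SRSF6 (40.3 ± 15.6 CPM in WT and 15.2 ± 6.56 in S34F, SD, n = 3 each; log2 fold change -1.44, edgeR adjusted p = 0.081) and SRSF2 (0.93, edgeR adjusted p = 0.19), both splicing factors of the SR family. Of 10 tested genes for the cleavage of the tRNA-like end of MALAT1 and NEAT1, none was called by any of the 3 tools, and 3 had p under 0.05 in edgeR, beside the same 17%. These were POP7, POP1 and POP4, subunits of RNase P, with edgeR log2 fold changes of 0.77, 1.10 and 0.65 (edgeR adjusted p = 0.18, 0.22 and 0.24), and DESeq2 gave p under 0.05 for 1 gene. Of 19 tested paraspeckle proteins, the partners of NEAT1, 0 were called by the 3 tools, with 3 genes (HNRNPA1, HNRNPR and CPSF6) at p under 0.05 in edgeR, 2 in DESeq2 and 3 in limma-voom. Of 10 tested genes of nuclear RNA decay 0 were called, with 2 at p under 0.05 in edgeR: EXOSC7 (log2 fold change 0.71, edgeR adjusted p = 0.19) and EXOSC1 (-0.70, edgeR adjusted p = 0.27), both subunits of the exosome. DESeq2 gave 1 and limma-voom 2 in that list. Both this and the paraspeckle count stand beside the 17% of everything tested with p under 0.05 in edgeR.

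The exon chains varied widely. In 22 members there was 1 isoform, in 33 there were 2 or more, and LINC01503 had the most with 18. Of the 161 isoforms 52 carried an annotated transcript ID, and 3 had a single exon. The isoform with most reads had 1 exon in 3 members, 2 exons in 14, 3 exons in 21 and 4 or more in 17. Its length ranged from 479 to 2072 bases with a median of 1254. Splicing choices with at least 10 reads for each form numbered 45 in 18 members: 15 cassette exons, 14 alternative 5′ sites, 9 alternative 3′ sites and 7 retained introns. Isoform usage could be tested in 1 member, LINC01605 (edgeR's diffSpliceDGE, 0 called and 0 at p under 0.05, where 0.615% of 2276 genes were called). The gene-level F test of edgeR and limma's diffSplice also called 0. The shares that follow are descriptions without a test. Of 43 member choices with a read of either form in every library, the ranges of the share did not overlap between genotypes in 7, 3 higher and 4 lower in S34F, where the same held for 14.3% of 20673 choices built alike over all genes. Of the 11 with at least 10 such reads in every library 2 were apart, exon 2 of LINC01503 and the 5′ site of LINC01605. The other 5, in LINC00888, LINC00659 and LINC01940, rest on fewer reads.

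The leading chain of LINC01503 has 5 exons and 1005 bases and held 104 reads. Its second exon, chr9:132096254-132096477 with 224 bases, was in 83 of 119, 43 of 61 and 50 of 66 reads in WT replicates 1, 2 and 3 (69.7%, 70.5% and 75.8%). In S34F it was in 11 of 19, 7 of 12 and 19 of 31 reads (57.9%, 58.3% and 61.3%). Each WT library was above each S34F library. A form of this exon of 278 bases, with an earlier start, is left out of these shares. It held 7, 9 and 8 reads in WT and 2, 0 and 1 in S34F. Over pooled reads the shares were 71.5% (95% Wilson interval 65.6% to 76.8%) and 59.7% (47.3% to 71.0%), and these intervals overlap. The intron before this exon ends in the CAG shown above.

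Exon 4 of LINC01503 begins at 1 of 3 sites, after positions 132103628, 132104014 or 132104110, and the innermost is also shown above with CAG. Reads using the middle site rather than the innermost made up 78.7%, 79.4% and 77.8% of 94, 63 and 81 reads in WT. In S34F they made up 61.1%, 85.7% and 69.0% of 18, 7 and 29 reads. The WT libraries lay close together, and the S34F libraries, with far fewer reads, fell on both sides of them.

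LINC00888 differed in the end of its first exon. The short form ends at the 5′ site printed above. The long form, ending 182 bases further on, made up 17 of 27, 18 of 28 and 27 of 49 reads in WT (63.0%, 64.3% and 55.1%) and 6 of 7, 13 of 14 and 13 of 17 in S34F (85.7%, 92.9% and 76.5%). All S34F libraries were above all WT libraries, with 7 informative reads in S34F replicate 1. The pooled shares were 59.6% (50.0% to 68.5%) and 84.2% (69.6% to 92.6%). The annotated isoform with this long exon made up 43.0% of WT reads and 65.0% of S34F reads of the gene.

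The shares of tandem 3′ sites 3 bases apart were close in the pooled reads of both genotypes. In LINC00963 the first site ends in AAG and the second in CAG, and the first took 20 of 40 informative reads in WT (50.0%) and 4 of 9 in S34F (44.4%, 18.9% to 73.3%). In LINC02407 the first of 2 such sites took 43.2% of 44 reads in WT and 47.1% of 17 in S34F. S34F replicate 2 held 0 informative reads for both LINC00963 and LINC02407. In LINC00888 the first site ends in CAG and took 76.6% of 111 and 77.5% of 40 reads. The second site, with 35 reads, follows the letters GTA and is the 1 window without AG. Whether it is a splice site of its own or a shift in alignment was not tested.

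In LINC01605 (chr8:37262680-37351352, minus strand) an alternative 5′ site lengthens an exon by 230 bases. The long form was in 2 of 58, 5 of 34 and 7 of 77 reads in WT (3.45%, 14.7% and 9.09%) and in 8 of 22, 3 of 15 and 12 of 49 in S34F (36.4%, 20% and 24.5%). The groups did not overlap, and the pooled shares were 8.28% (5.0% to 13.4%) and 26.7% (18.5% to 36.9%). Its 3 cassette exons were close in the pooled reads: 67.5% and 61.6%, 26.6% and 22.1%, and 8.28% and 6.98% in WT and S34F. The usage test above compares only the 2 isoforms of this gene with enough reads, which held 57 and 53.

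LINC00659 varied among the WT libraries. A long first exon, whose intron begins at 61407663, was in 42 of 69, 7 of 18 and 4 of 14 reads in WT replicates 1, 2 and 3 when set against the form whose intron begins at 61407807. In S34F it was in 0 of 4, 0 of 1 and 1 of 5 reads. WT replicate 1 held most reads with this exon and was also the library with the highest level of the gene. An isoform with it, of 3 exons and 1193 bases, had 23, 5 and 1 reads in WT and none in S34F.

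Other chains overlapped between genotypes or were thinly covered. In LINC01835 an exon of 90 bases was in 82.1%, 87.5% and 79.2% of WT reads and 80.5%, 82.4% and 91.4% of S34F reads. In LINC00839 an exon of 263 bases was in 90.7%, 94.7% and 97.2% in WT and 88.9%, 87.5% and 100% in S34F. In both genes the groups overlapped. The leading isoform of LINC00674, with 5 exons and 873 bases, made up 77.7% of its WT and 89.7% of its S34F reads. In LINC01184 an exon of 766 bases was in 21 of 30 WT reads and 6 of 19 S34F reads. The WT libraries ranged from 25% to 93.3% and overlapped the S34F range of 20% to 37.5%. The retained intron of LINC01940 was in 38.2%, 38.9% and 40.0% of 34, 18 and 10 reads in WT, and in 0 of 4, 0 of 2 and 1 of 5 in S34F.

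**Figure D5:**
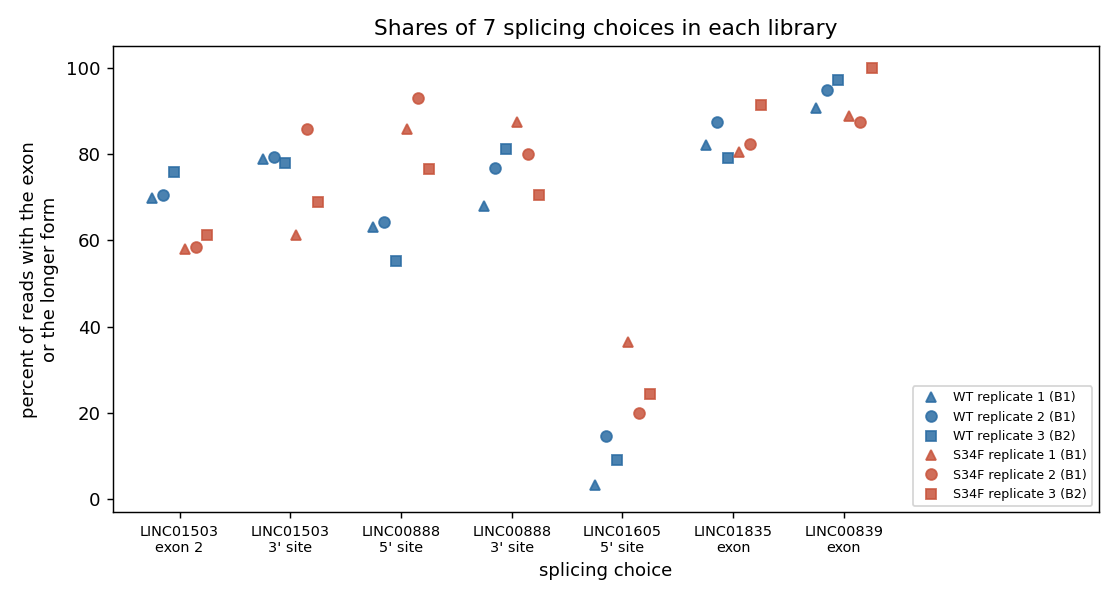
Share of reads with an exon or with the longer form (y axis, percent) for 7 splicing choices in 5 genes, in each of 6 libraries; blue is WT, red S34F, and squares are the B2 libraries. The groups are apart for exon 2 of LINC01503 and for the 5′ sites of LINC00888 and LINC01605, and overlap for the other 4; over all genes such ranges are apart in 14.3% of choices.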

How the data were processed

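The authors deposited 1 table of raw counts, whole numbers of long reads for each isoform in each library, and 1 file of isoform models with exon starts and ends, whose name points to FLAIR. Per the submitters' processing notes the positions are hg19. The aligner, the filters and the use of strand are not given in the labels or files. Poly(A) RNA was reverse transcribed by Smart-Seq2 and read on a MinION, per the labels' protocols. Every sample column was used.

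Reads were summed per gene. Symbols came from GENCODE v29 (10859 of 11034 IDs matched). Members and gene lists were chosen with earlier results of these data known. Genes, isoforms and isoform usage were tested over the whole table with edgeR 4.0.16 in R 4.3.3 (quasi-likelihood test, TMM, filterByExpr with 10 reads and 15 in total, a B1/B2 term, Benjamini-Hochberg threshold 0.05, Simes p per gene for usage). DESeq2 1.42.0 and limma 3.58.1 served as alternatives, and the scripts were tested on simulated data. Log2 fold changes are S34F minus WT. Splicing choices were built from exon chains in Python 3.11.15 with pandas 2.3.3. Library totals are counts of assigned reads, and they set the precision of each share.

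Named members are MALAT1, LINP1, every called member, the 12 with the smallest gene-level p and the 12 with most reads. Exon chains are given for the 8 members with most reads among those with at least 2 isoforms of 10 reads. LINC02376 also falls under most reads; LINC02210, LINC00963, LINC02407, LINC01940 and the members listed by range were named after their values were seen. Deviations from the genotype means correlated at 0.49, 0.16 and 0.85 between WT and S34F libraries of the same replicate number. The rule set for this check, every r over 0.1, was met. Libraries of a number share B1/B2 and the isolate number. Across numbers, WT replicate 2 with S34F replicate 1 gave 0.54, WT replicate 1 with S34F replicate 2 gave 0.33, and the 4 other pairs -0.72 to -0.31, so within B1 the numbers do not pick out the pairs.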

Additional observations from a re-analysis of the deposited data

How the results depend on the processing

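The 2 gene-level calls changed under most alternatives. With the replicate number as a block 1 member was called (LINP1), as with DESeq2, where 2.66% and 2.97% of everything tested were called. The count was 0 with no B1/B2 term (0.028% of everything tested called) and with B1 libraries only (1.25%). It was also 0 with at least 10 reads in every library (4 members tested, 1.91%) and with limma-voom (2.74%). At equal depth (5 tested) it was 0 beside 2.66%. With isolate 2 summed it was 0, a setting in which 0 of 8614 genes and loci were called. It was 6 with no filter (55 tested), where 2.03% of everything tested was called. Leaving out 1 library at a time gave 0 to 4 calls, beside 0.87% to 7.62% of everything tested. LINC02376 was called in each of the fits without WT replicate 1 or without any 1 of the S34F libraries. It reached the filter level in 2 WT and 0 S34F libraries, so it entered those fits only through its high WT level. These repeated calls are therefore no added support. With isolate 2 summed LINC02376 was also in the fit and was not called. RLE scaling gave 2, beside 3.21% of everything tested. With symbols of the later gene name table, an alternative chosen after seeing the data, 3 of 22 tested were called, beside 3.24% of everything tested. LINC02725, a gene that only the later table brings in and that is described below, is among these 3.

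At isoform level the 1 call became 0 with no B1/B2 term (0.021% of all isoforms tested called). It was 0 too with B1 libraries only (1.44%) and at least 10 reads in every library (2.66%). DESeq2 (2.46%), equal depth (3.10%) and isolate 2 summed (0 of 18798) also gave 0. With no filter it was 4, beside 1.30%. Leaving out 1 library gave 0 to 2, beside 1.33% to 7.43%. The replicate block kept 1 isoform call and changed the call of no member but LINC00973; of the other genes named, LAMB3 lost its call (edgeR adjusted p = 0.053) and ASB1 and JAG2 held theirs. Isoform usage had 0 calls in all 10 alternatives that tested a member; B1 only, 10 reads in every library and the fit without WT replicate 3 tested none. LINP1 kept its direction in 14 of 14 alternatives (log2 fold change 1.39 to 2.21) and LINC00973 in 14 of 14 (-3.27 to -2.00). The library ranges of both genes did not overlap, so refits of the same reads had little room to change the sign. The kept directions are therefore no added support. The summed level was lower in S34F in all 9 alternatives, with log2 ratios from -0.43 to -0.31. Most of these only left out libraries and could not change the sign, because every WT sum lay above every S34F sum. They are therefore no added support. Few reads per member limit what could be tested: 32 of 55 stayed under the filter.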

Other observations

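Gene names change, and a later gene name table moves 9 genes out of the set and 9 into it, with 46 in both. Of the 9 that came in, LINC02725 (ENSG00000273415.1) held 62, 48 and 81 reads in WT replicates 1, 2 and 3 and 1, 8 and 11 in S34F. It fell by 2.18 on the log2 scale (41.9 ± 5.72 CPM in WT and 9.67 ± 7.70 in S34F, SD, n = 3 each; edgeR adjusted p = 0.018). All WT libraries were above all S34F libraries. LINC02762 held 30, 32 and 17 reads in WT and 6, 2 and 6 in S34F (log2 fold change -1.31, edgeR adjusted p = 0.17). LINC02989 held 11, 3 and 4 reads against 0, 0 and 1. LINC02802 had the most reads of the 9, with 246, 274 and 140 in WT and 109, 47 and 70 in S34F, but its log2 fold change was -0.40 (edgeR adjusted p = 0.55). LINC02987, which is AC006504.5 above, held 15, 21 and 30 reads in WT and 3, 8 and 36 in S34F (log2 fold change 0.29). LINC00938 (3.03 CPM in WT and 5.58 in S34F) and LINC03015 (1.87 and 2.36) also had the higher mean in S34F, from 26 and 14 reads, so that 6 of the 9 were lower and 3 higher. These genes were named after their values were seen.

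The nearest other gene read in these libraries lay 53146 bases away in the median, and 4 members overlapped such a gene, 2 of them on the opposite strand. Genes without reads here were not considered and may lie closer. Of 36 tested neighbours 2 were called, where 3.24% of all genes and loci tested were. ASB1, 485438 bases from LINC01940, fell by 1.78 on the log2 scale (181 CPM in WT, 52.3 in S34F; edgeR adjusted p = 0.0020). JAG2, a Notch ligand 41424 bases from LINC02298, rose by 1.88 (6.29 CPM in WT, 23.7 in S34F; edgeR adjusted p = 0.038, and 0.050 with limma-voom, just over the threshold). LINC01940 had 13.8 ± 7.26 CPM in WT and 5.18 ± 1.23 in S34F and LINC02298 4.44 ± 2.05 and 2.74 ± 4.74 (SD, n = 3 each), both under the filter of the test. PRKCQ-AS1, 153085 bases from LINP1, was also too low for it.

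Among the basal epithelial markers LAMB3, a laminin chain, fell (log2 fold change -1.39, edgeR adjusted p = 0.029; with the replicate block adjusted p = 0.053 and 0 of 9 markers called). KRT5, a basal keratin, stood at 412 CPM in WT and 1028 in S34F (edgeR adjusted p = 0.051 for a log2 fold change of 1.34). The main edgeR test called 1 of 9, beside 3.24% of everything tested. DESeq2 and limma-voom each called 2 of 9, LAMB3 and KRT5, the latter as higher in S34F. These 2 tools called 2.97% and 2.74% of everything tested. The part of these in the levels of the noncoding genes was not tested.

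Between B1 and B2, 13 members had a mean level in B1 more than 2 times that in B2, and 4, MALAT1 among them, the reverse. The share of all genes that differ this much was not computed, so these counts do not set the members apart. Counting error, at a median of 50 reads per member, was not separated from B1/B2.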
